A study of Homo sapiens with 18 samples.

Results

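The difference between 2 pancreatic cancer lines in their response to OFD1 knockdown was measured by RNA-seq, as the change in MIA PaCa-2 minus the change in PATU8988T for each gene. OFD1 encodes a protein of centrioles and centriolar satellites that is needed to build the primary cilium, and its loss causes oral-facial-digital syndrome. The comparison used 12 of the 18 libraries of the series, 3 control and 3 knockdown libraries of each line, and PANC1 values are given only side by side. MIA PaCa-2 and PATU8988T were each grown from human pancreatic ductal adenocarcinomas. In the study's methods, the cells carried a doxycycline-inducible (Tet-on) shRNA against OFD1 and received DMSO or doxycycline for 72 h. The labels give the controls as wild type and without treatment, under titles that name a control shRNA, and doxycycline for 72 h to the knockdown samples alone. An effect of doxycycline, or of separately made control cells, therefore cannot be told apart from that of the knockdown. Which of the study's shRNAs against OFD1 was sequenced, and any clonal selection, are not given in the sources used here. The source label of PATU8988T replicates 2 and 3 gives another number for the line than the titles do, and the titles were followed. The methods state that biological assays were repeated independently, without saying so of these libraries, so p-values measure the spread between libraries, which may be technical.

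Values were deposited as FPKM, which scales the counted fragments of a gene by its length and by library size. A difference is on the log2 scale of FPKM plus 0.1, so a value of 1 stands for a change that was 2 times larger, or less negative, in MIA PaCa-2, and small changes of low genes are understated. Of 26668 genes, 9647 had a mean FPKM of at least 1 in each line and were tested in 1 limma fit with an interaction term. A gene was called on the difference at a Benjamini-Hochberg adjusted p below 0.05 and a difference of at least 1 in size. Libraries held between 34724763 and 39797537 counted reads, recovered from the steps of the FPKM values. MIA PaCa-2 control replicate 2 stood apart. Its log2 values spread around those of the other 2 controls with an SD of 0.512, against 0.110 to 0.273 for the other 11 libraries. Totals of called genes, opposite changes and changes limited to a line are given also without it. Counts of genes that passed in each line are given with it, as are list counts unless stated. The fit used a shared variance per gene for both lines, so the spread of this library also enters the PATU8988T tests. Of the epithelial keratins, KRT8 and KRT18 were high in both lines, with KRT8 between 363 and 1189 FPKM in all 12 libraries. KRT7 was low, at 0.61 to 1.21 FPKM in MIA PaCa-2 and 0.11 to 0.48 in PATU8988T. The epithelial genes EPCAM and CDH1 stayed below 0.10 FPKM in MIA PaCa-2, and KRT19 was at or near 0 in PATU8988T. There CDH1 reached 0.38 FPKM at most and EPCAM measured 2.88 to 3.57. Of the mesenchymal genes, VIM lay between 3475 and 4968 FPKM in MIA PaCa-2 and between 580 and 800 in PATU8988T. CDH2 was at 0 in MIA PaCa-2 and at 6.98 to 8.08 FPKM in PATU8988T. ZEB1 lay between 3.00 and 7.47 FPKM in all 12 libraries. The leukocyte gene PTPRC was at 2.32 to 4.45 FPKM in the MIA PaCa-2 controls and at 5.89 to 6.22 after knockdown, with no overlap, and below 0.01 in PATU8988T. Of the other markers fixed for other cells, the fibroblast gene DCN stayed below 0.01 and INS and PRSS1 were listed at 0 in all 12 libraries. The part of PTPRC in the results was not tested.

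OFD1 itself was lower in every knockdown library than in any control of its line. In MIA PaCa-2 it measured 3.09, 2.27 and 3.20 FPKM in the controls and 1.76, 1.74 and 1.97 after knockdown, a mean of 63.9% of control. In PATU8988T the controls measured 2.14, 1.93 and 2.12 FPKM and the knockdown libraries 0.986, 0.894 and 0.854, a mean of 44.2% of control. The log2 changes were -0.61 and -1.10, so the fall was larger in PATU8988T by 0.49 ± 0.18 (SE, adjusted p = 0.0422), or by 0.34 without MIA PaCa-2 control replicate 2. An exact permutation test within a line gave p = 0.1 for both lines, two-sided, the smallest that 3 against 3 allows. The DNA repair gene BRCA1 was lower after knockdown in both lines. It went from 10.4, 7.22 and 10.9 FPKM to 4.13, 4.01 and 4.08 in MIA PaCa-2, and from 4.59, 4.73 and 4.40 to 1.89, 1.86 and 1.97 in PATU8988T. Its changes were -1.18 and -1.22, with an uncalled difference of 0.037 ± 0.18 (SE) and a 95% interval from -0.36 to 0.44.

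More genes passed the test in MIA PaCa-2 than in PATU8988T. In MIA PaCa-2, 288 genes rose and 333 fell by at least 2-fold at an adjusted p below 0.05, while in PATU8988T 7 rose and 58 fell. The median size of the change over all genes was 0.33 (MIA PaCa-2) and 0.14 (PATU8988T) on the log2 scale. On the difference, 457 genes (4.74% of those tested) were called higher and 401 (4.16%) lower, 858 (8.89%) in all. Of these, 59 belonged to lists of S-phase, G2/M and histone genes, leaving 799. Of these, 439 fell into none of the patterns described here (254 higher and 185 lower), and the other 360 are shown by pattern in the plot of both lines' changes or counted as unequal changes in the same direction. A mean below 1 FPKM in 1 group of a line was found in 102 of the 858 called genes (11.9%) and in 3.03% of all tested genes. Such genes passed the level filter only through the group where they were high, so their difference is partly set by the filter. Among the genes named in the text these are IL32, GDF15, GBP2, IFT140, DYNC2H1, ITGB4, EFEMP2, FAXDC2, SAMD4A, CHAC1, H2AC11, SLC36A1, SLC43A1, SCARA3, MATN2, LINC01963, MAPT, KCNN4, TUBB4A, SPRY1 and OFD1 itself. A total of 108 genes (1.12%) changed in opposite directions, each line passing its own test with a change of at least 0.5. In 99 of them (1.03%) MIA PaCa-2 rose and PATU8988T fell, and in 9 (0.0933%) the reverse held. Changes limited to MIA PaCa-2, meaning a change of at least 1 there and a 95% interval within 0.5 of 0 in PATU8988T, numbered 88 rises (0.912%) and 169 falls (1.75%). Changes limited to PATU8988T numbered 9 falls (0.0933%) and 0 rises (0%). Both classes allow a small change in the other line that passed its own limma test. Examples are GALNT10, limited to MIA PaCa-2 (-0.22 in PATU8988T, adjusted p = 0.047), and ENO2, limited to PATU8988T (0.19 in MIA PaCa-2, adjusted p = 0.038). By limma, 7 genes rose in PATU8988T by at least 2-fold whatever their change in MIA PaCa-2. Without MIA PaCa-2 control replicate 2, 486 genes were called higher and 433 lower, and 698 of the 858 calls were shared. Opposite changes then numbered 141, changes limited to MIA PaCa-2 353 and changes limited to PATU8988T 14.

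**Figure D1:**
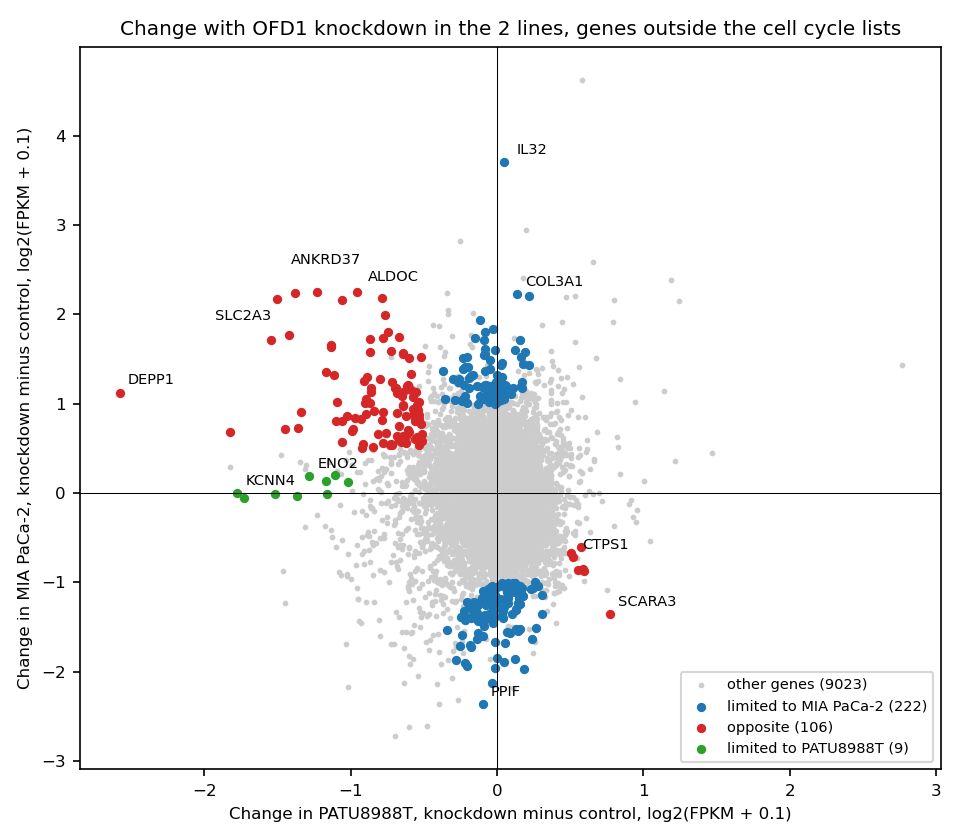
Change with OFD1 knockdown in PATU8988T (horizontal) and MIA PaCa-2 (vertical), each as the mean of 3 knockdown minus 3 control libraries in log2(FPKM + 0.1), 1 point per tested gene outside the cell cycle lists. Opposite changes (106 genes, red) lie mostly at upper left, where MIA PaCa-2 rose and PATU8988T fell, changes limited to MIA PaCa-2 (222, blue) lie above and below 0 at the centre, and the 9 limited to PATU8988T (green) lie on the left.

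The list with the highest median difference was that of glycolysis and hypoxia genes, which rose in MIA PaCa-2 and fell in PATU8988T for most tested members. Cells short of oxygen stabilise hypoxia-inducible factors (HIF), which bind sequences with the core ACGTG in promoters and enhancers. These factors raise glucose transporters, glycolytic enzymes and kinases that keep pyruvate out of the citric acid cycle. Pancreatic cancer cells are known to use this programme. Of 42 genes on this list, 36 were tested, and 20 were called higher in MIA PaCa-2 relative to PATU8988T and 0 lower at this threshold in limma (at an adjusted p alone, 30 higher and 0 lower). Of all genes tested, 4.74% were called higher, and at an adjusted p alone 19.2% were higher and 26.5% lower. A total of 29 members rose and 0 fell in MIA PaCa-2 at an adjusted p below 0.05, where 24.9% of all genes rose and 31.1% fell. In PATU8988T, 1 rose and 28 fell, where 5.82% of all genes rose and 6.98% fell. The list's median change was 0.56 (MIA PaCa-2) and -0.42 (PATU8988T), with a median difference of 1.10 against -0.06 over all genes, and 11 members were in the opposite group. Without MIA PaCa-2 control replicate 2, 22 members were called higher and the median difference was 1.18. In PANC1, the median change of the list was -0.41.

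The promoter windows of 4 of the 11 opposite members are printed because they hold that core sequence, ACGTG or its reverse complement, which is set in capitals. They were chosen after their values were seen, as the 4 with the smallest p of the difference among the members with a match whose window could be printed. Each window runs 5′ to 3′ from 250 bases before to 50 bases after the RefSeq gene start on GRCh38.p14.
ANKRD37 (chr4:185396591-185396890, plus strand): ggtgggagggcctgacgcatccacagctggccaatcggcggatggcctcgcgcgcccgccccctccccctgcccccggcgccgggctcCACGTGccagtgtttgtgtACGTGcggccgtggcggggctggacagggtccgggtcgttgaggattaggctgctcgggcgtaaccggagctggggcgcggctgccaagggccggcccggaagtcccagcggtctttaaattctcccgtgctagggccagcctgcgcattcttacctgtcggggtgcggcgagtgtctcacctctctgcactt
PGK1 (chrX:78103998-78104297, plus strand): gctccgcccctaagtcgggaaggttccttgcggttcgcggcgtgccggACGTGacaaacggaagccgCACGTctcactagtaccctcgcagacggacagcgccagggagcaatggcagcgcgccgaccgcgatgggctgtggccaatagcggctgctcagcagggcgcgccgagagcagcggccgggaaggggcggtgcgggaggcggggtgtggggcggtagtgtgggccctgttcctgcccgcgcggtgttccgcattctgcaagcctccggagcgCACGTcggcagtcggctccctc
ALDOC (chr17:28576846-28577145, minus strand): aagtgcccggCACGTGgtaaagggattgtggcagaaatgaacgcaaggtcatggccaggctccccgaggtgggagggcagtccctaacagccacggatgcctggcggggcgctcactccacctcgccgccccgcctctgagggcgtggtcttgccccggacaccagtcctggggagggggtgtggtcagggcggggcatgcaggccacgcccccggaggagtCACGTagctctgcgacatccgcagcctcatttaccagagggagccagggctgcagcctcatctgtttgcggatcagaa
HK2 (chr2:74833877-74834176, plus strand): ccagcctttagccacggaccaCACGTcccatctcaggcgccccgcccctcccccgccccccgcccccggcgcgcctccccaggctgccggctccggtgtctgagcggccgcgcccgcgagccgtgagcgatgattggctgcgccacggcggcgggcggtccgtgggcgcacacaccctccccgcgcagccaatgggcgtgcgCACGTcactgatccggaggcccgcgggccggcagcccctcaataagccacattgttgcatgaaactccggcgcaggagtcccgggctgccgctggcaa
In ANKRD37 and ALDOC, 2 of the 3 matches overlap, since CACGTG reads as a match on both strands. The letters were found in 6 of the 9 opposite members with a window (66.7%), in 15 of 32 list members (46.9%), in 25 of 76 genes of the whole group that MIA PaCa-2 raised and PATU8988T lowered (32.9%), in 28.3% of 7964 windows of tested genes and in 21.6% of all 27305 windows. The letters CCAAT, another motif searched, were also in 6 of the 9 opposite members with a window (66.7%). They were in 11 of 32 list members (34.4%) and in 37.9% of windows of tested genes. A match is a run of letters only, and no binding was measured.

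SLC2A3, the neuronal-type glucose transporter GLUT3, measured 22.99, 20.2 and 23.6 FPKM in the MIA PaCa-2 controls and 98.2, 101.3 and 101.2 after knockdown. In PATU8988T it went from 4.85, 4.48 and 3.94 to 1.67, 1.60 and 1.24. No library of a control group overlapped the knockdown libraries of its line. The changes were 2.17 and -1.50, a difference of 3.67 ± 0.16 (SE, adjusted p = 5.8e-08). ANKRD37, an ankyrin-repeat protein induced by hypoxia, rose from 2.51, 2.81 and 2.11 to 12.5, 10.97 and 12.6 FPKM in MIA PaCa-2. It fell from 32.98, 32.9 and 34.2 to 11.98, 13.2 and 12.995 in PATU8988T, so that the knockdown libraries of both lines overlapped in level. Its difference was 3.62 ± 0.14 (adjusted p = 5.4e-08). Among the glycolytic enzymes, PGK1 (phosphoglycerate kinase) rose from 161, 178 and 160.1 to 311, 309 and 307 FPKM in MIA PaCa-2 and fell from 306, 305 and 309.5 to 186, 196 and 192 in PATU8988T, a difference of 1.58 ± 0.07. ALDOC (aldolase C) rose from 7.07, 8.78 and 6.35 to 35.5, 36.5 and 34.2 FPKM in MIA PaCa-2. In PATU8988T, where its controls were far higher, it fell from 472, 467 and 476 to 229, 253 and 247, a difference of 3.21 ± 0.13.

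Other members, all but ADM named after their values were seen, cover further steps of the pathway. HK2 (hexokinase 2) changed by 1.18 in MIA PaCa-2 and by -0.70 in PATU8988T, and PFKFB4, which makes the activator of phosphofructokinase, by 1.58 and -0.87. PDK1, a kinase that blocks pyruvate entry into the citric acid cycle, changed by 1.57 and -0.65, and NDRG1, a differentiation and stress gene, by 1.59 and -0.72. DDIT4 (REDD1), an inhibitor of mTORC1, changed by 0.86 and -1.03, with 91.4, 159.9 and 89.5 FPKM in the MIA PaCa-2 controls, where replicate 2 was the highest. The secreted peptide ADM went against the group in PATU8988T, as it rose in both lines, by 2.59 and 0.66. LDHA (lactate dehydrogenase A) changed by 0.11 and -0.35, and the glucose transporter SLC2A1 by 0.31 and -0.43. HIF1A, which encodes a HIF subunit regulated mainly as protein, measured 86.4, 51.1 and 85.2 FPKM in the MIA PaCa-2 controls against 108, 110.2 and 113 after knockdown. Its changes were 0.61 (limma adjusted p = 0.0073) and 0.075, and its difference of 0.54 ± 0.23 did not pass the test (adjusted p = 0.0739). Without MIA PaCa-2 control replicate 2, the lowest control, the difference was smaller, at 0.29, but passed at an adjusted p of 0.0024 in limma. It stayed uncalled, as its size was below 1. Off the list, EPAS1, HILPDA and SPAG4 were picked after their values were seen, for changes like those of the list, and support nothing. EPAS1, the gene of HIF-2α, rose by 1.02 in MIA PaCa-2 and changed by -0.54 in PATU8988T. HILPDA, a lipid droplet protein, changed by 0.91 and -1.34, and SPAG4, a nuclear envelope protein, by 2.18 and -0.79. Reads of HILPDA cannot be told apart from those of its antisense transcript, as the strand setting of the counting is not given in the sources used here.

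**Figure D2:**
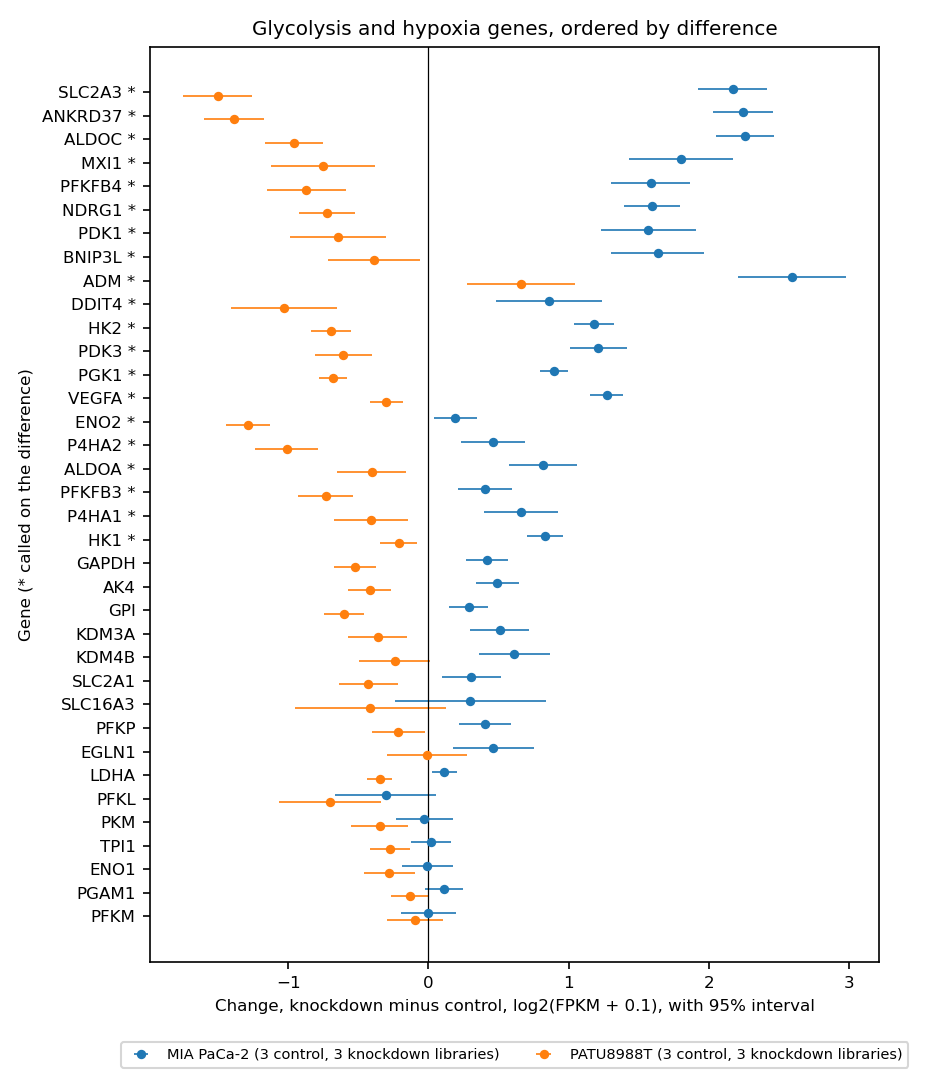
Change with OFD1 knockdown of the 36 tested glycolysis and hypoxia genes in MIA PaCa-2 (blue) and PATU8988T (orange), in log2(FPKM + 0.1) with 95% limma intervals, ordered by the difference. The 20 genes with a star were called on the difference. ADM is the member above 0 in PATU8988T, and the enzymes at the bottom (PFKM, PGAM1, ENO1) changed little in MIA PaCa-2.

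The named opposite genes outside that list included cell surface and matrix genes. Of these, EFEMP2 and ITGB4 had a mean below 1 FPKM in the MIA PaCa-2 controls, and MAPT in the PATU8988T knockdown libraries, so that the other group carried them over the level filter. EFEMP2 (fibulin-4), which helps assemble elastic fibres, rose from 0.462, 0.819 and 0.543 to 2.24, 2.42 and 2.12 FPKM in MIA PaCa-2 and fell from 9.60, 10.4 and 9.85 to 3.53, 3.96 and 3.49 in PATU8988T, a difference of 3.19 ± 0.21 (adjusted p = 1.3e-06). ITGB4, the integrin subunit of hemidesmosomes, measured 0.629, 1.46 and 0.664 FPKM in the MIA PaCa-2 controls, where replicate 2 lay above the other 2 controls, and 2.82, 2.97 and 2.97 after knockdown. In PATU8988T it fell from 29.3, 29.99 and 30.4 to 12.9, 14.4 and 13.5. TSPAN1, a tetraspanin, changed by 1.63 and -1.14, and MAPT, the microtubule-binding protein tau, by 1.36 and -1.17. The urothelial gene UPK1A changed by 2.26 and -1.23, and its antisense transcript UPK1A-AS1 by 1.71 and -1.54. UPK1A-AS1 lies within UPK1A (GRCh38.p14 chromosome 19, bases 35667948 to 35673291 within 35666517 to 35678481). Whether reads were counted by strand is not given in the sources used here, so the 2 cannot be told apart.

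Several other lists also held opposite members. MUC1, an epithelial mucin, rose from 1.30, 1.45 and 1.16 to 6.13, 6.42 and 5.88 FPKM in MIA PaCa-2 and fell from 7.97, 8.67 and 7.09 to 3.76, 4.15 and 3.34 in PATU8988T, a difference of 3.22 ± 0.15. DEPP1, a FOXO target, rose from 11.2, 17.1 and 11.9 to 29.2, 30.01 and 27.3 FPKM in MIA PaCa-2 and fell from 16.9, 15.8 and 16.7 to 2.27, 2.92 and 2.86 in PATU8988T, a difference of 3.71 ± 0.21 and the most negative PATU8988T change (-2.58) among the opposite genes. BHLHE40, a clock and stress repressor, changed by 1.51 and -0.60. HMOX1 (haem oxygenase 1) changed by 1.25 and -0.72, and the fibrillar collagen gene COL27A1 by 0.88 and -0.90. In all of these genes the control and knockdown libraries of each line did not overlap, which largely follows from their choice by a test in each line.

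The reverse pattern, a fall in MIA PaCa-2 and a rise in PATU8988T, was held by 7 genes outside the cell cycle lists, and all 7 kept it without MIA PaCa-2 control replicate 2. SCARA3, a scavenger receptor that responds to oxidative stress, fell from 1.48, 2.14 and 1.67 to 0.628, 0.608 and 0.629 FPKM in MIA PaCa-2 and rose from 1.52, 1.51 and 1.61 to 2.60, 2.84 and 2.70 in PATU8988T, a difference of -2.13 ± 0.17 (adjusted p = 3.4e-06). CTPS1 (CTP synthase 1) fell from 38.6, 41.6 and 38.8 to 24.2, 24.1 and 23.8 FPKM in MIA PaCa-2 and rose from 61.3, 62.02 and 61.1 to 87.996, 90.3 and 86.6 in PATU8988T, a difference of -1.24 ± 0.06 (adjusted p = 2.5e-07). BRPF3, a scaffold of histone acetyltransferase complexes, changed by -0.86 and 0.59, and PTS, an enzyme of tetrahydrobiopterin synthesis, by -0.87 and 0.59. EID2, an inhibitor of differentiation, changed by -0.86 and 0.55. RXYLT1, which glycosylates dystroglycan, changed by -0.61 and 0.57, and the matrix protein MATN2 (matrilin 2) by -0.67 and 0.50. The PATU8988T change of MATN2 lay at the class limit of 0.5, and its difference weakened to -0.84 in 1 alternative, below 1 in size. The knockdown libraries stood apart from their controls in both lines for all 7 genes, as largely follows from their choice by those changes.

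**Figure D3:**
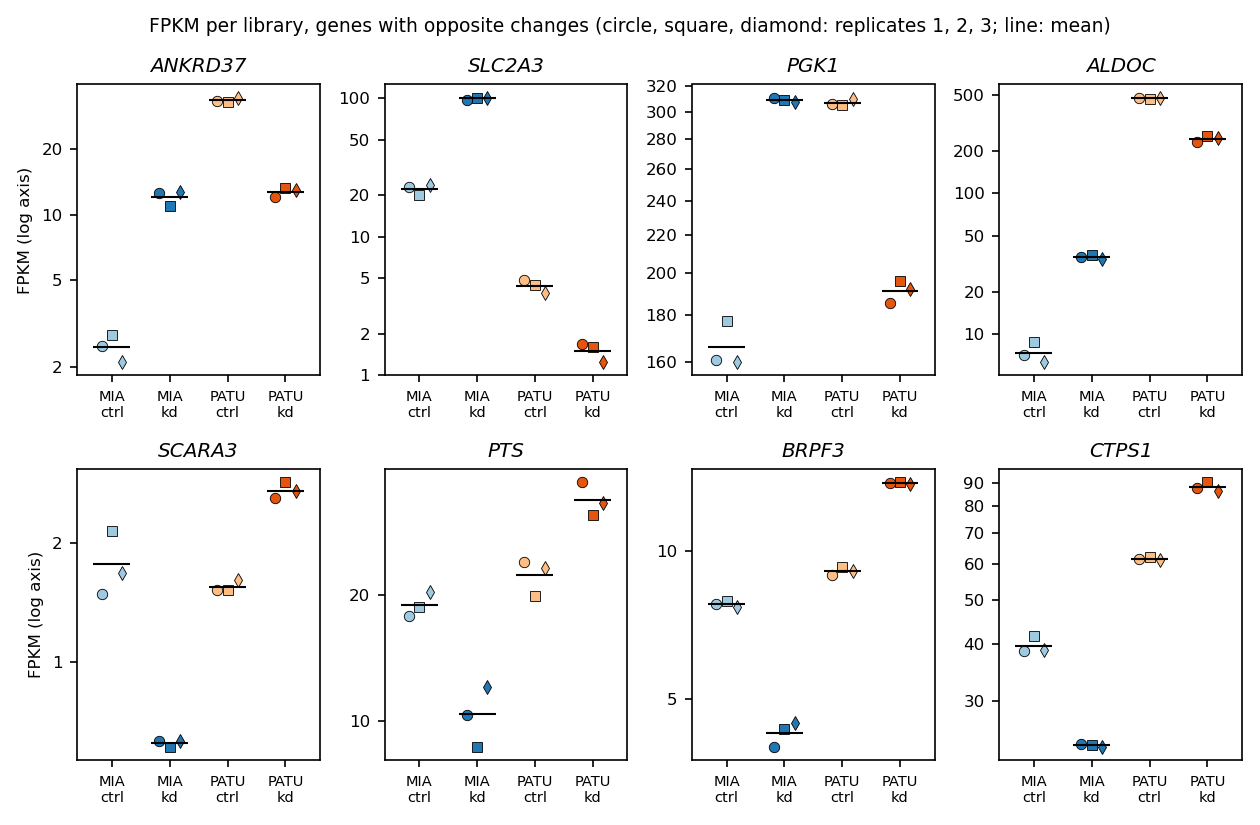
FPKM (log axis) of 8 genes with opposite changes in each of the 12 libraries, with circles, squares and diamonds for replicates 1, 2 and 3 and a line at the mean of each group. In the top row the MIA PaCa-2 (MIA) knockdown libraries (kd) lie above their controls (ctrl) and the PATU8988T (PATU) knockdown libraries below theirs. In the bottom row the directions are exchanged, as in SCARA3 with 0.608 to 0.629 FPKM in the MIA PaCa-2 knockdown libraries.

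Of the 99 genes that MIA PaCa-2 raised and PATU8988T lowered, 97 kept this pattern without MIA PaCa-2 control replicate 2. In that library they lay at a median of 0.31 above the mean of the other 2 controls on the log2 scale, that is, towards the knockdown libraries. Before knockdown, 23 of the 99 (23.2%) were higher in the MIA PaCa-2 controls than in the PATU8988T controls, against 52.3% of all tested genes. The gene lengths behind the FPKM of the 2 lines matched within 1% for 98.4% of tested genes. The same control values enter the change that chose the genes, so this share is a description. The size of the gap between the lines was smaller after knockdown in 52.5% of the 99 and in 50.7% of all genes. In PANC1, 74 of the 99 genes were tested, of which 17 rose and 39 fell at an adjusted p below 0.05, against 40.2% and 32.7% of all genes tested in the 3 lines. Values of PANC1 were fitted separately, and the difference between PANC1 and either line was not tested.

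Changes limited to MIA PaCa-2 outside the cell cycle lists comprised 88 rises and 134 falls, of which 70 and 105 kept this class without control replicate 2. IL32, a pro-inflammatory cytokine, was almost silent in the MIA PaCa-2 controls (0.0396, 0.0195 and 0.119 FPKM, 2, 1 and 6 recovered reads) and measured 2.46, 1.76 and 1.62 FPKM after knockdown. It passed the level filter only through its knockdown libraries, and its difference ranged from 1.42 to 5.02 over the alternatives. Relative to library reads, the summed ratio was 32.9, with an exact 95% interval from 17.1 to 72.7 that covers counting error only. In PATU8988T, IL32 was at 74.9, 71.1 and 76.4 FPKM in the controls and 79.3, 80.2 and 70.7 after knockdown. COL3A1, a fibrillar collagen chain of stromal tissue, rose from 6.75, 6.03 and 6.32 to 30.6, 30.2 and 29.6 FPKM in MIA PaCa-2 and measured 3.20, 2.97 and 2.79 in the PATU8988T controls and 3.20, 3.01 and 3.69 in their knockdown libraries, a difference of 2.09 ± 0.12 (adjusted p = 5.2e-07). It was also fixed as a marker of other cells. The fibroblast genes DCN and LUM, markers of the same kind, were below 0.02 FPKM in all 12 libraries. ACTA2, the smooth muscle actin gene, rose from 1.14, 1.33 and 1.23 to 4.82, 5.33 and 4.94 FPKM in MIA PaCa-2, a difference of 2.05 ± 0.12.

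Other rises limited to MIA PaCa-2 included TRIB3, TXNIP, BATF2 and FAXDC2. TRIB3, a pseudokinase induced by ATF4, rose from 12.8, 19.3 and 12.7 to 50.003, 50.7 and 53.01 FPKM and measured 14.8, 15.1 and 14.3 in the PATU8988T controls and 12.9, 14.4 and 14.3 in their knockdown libraries, a difference of 1.88 ± 0.19 (adjusted p = 1.8e-05). TXNIP, an inhibitor of thioredoxin and glucose uptake, rose from 37.05, 31.1 and 35.9 to 114, 114 and 113 FPKM and changed by 0.16 in PATU8988T. The transcription factor BATF2 changed by 1.74 and -0.15, and FAXDC2, a fatty acid hydroxylase domain gene, by 1.83 and -0.027.

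Of the falls limited to MIA PaCa-2, 8 were named. PPIF (cyclophilin D), a regulator of the mitochondrial permeability pore, fell from 74.1, 101.5 and 75.8 to 15.8, 14.8 and 17.6 FPKM and measured 30.2, 29.1 and 29.5 in the PATU8988T controls and 25.2, 29.9 and 28.1 in their knockdown libraries, a difference of -2.27 ± 0.16 (adjusted p = 2.1e-06). SLC25A15, the mitochondrial ornithine carrier, fell from 12.6, 12.8 and 13.5 to 3.01, 3.13 and 3.88 FPKM, with a change of -0.21 in PATU8988T. ND6, the respiratory chain subunit encoded on the other strand of mitochondrial DNA than the rest, went from 222, 357 and 199.9 to 68.6, 64.8 and 60.9 FPKM, and without strand its reads cannot be told apart from those of overlapping RNA. MPHOSPH6, an RNA exosome cofactor, changed by -2.12 and -0.032, and LTV1, a factor of small ribosomal subunit assembly, by -1.90 and 0.045. SMARCE1, a subunit of the SWI/SNF remodeller, changed by -1.87 and -0.28. GALNT10, which starts mucin-type O-glycans, changed by -1.90 and -0.22, and the non-coding LINC01963 by -1.97 and 0.19. The heat shock genes HSPA1A and HSPA1B, named after their values were seen, changed by -2.19 and -1.86 in MIA PaCa-2 and by 0.11 and 0.12 in PATU8988T. HSPA1B belonged to this class, but HSPA1A missed it because its PATU8988T interval reached 0.56. As near-identical copies their reads may have been split between them, so each value is uncertain.

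PANC1 values of this class are given side by side. Of the rises limited to MIA PaCa-2, 77 were tested in PANC1, where 56 rose and 8 fell at an adjusted p below 0.05. Of the falls, 130 were tested, of which 1 rose and 117 fell. Of the 9083 genes tested in all 3 lines, 40.2% rose and 32.7% fell in PANC1.

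Changes limited to PATU8988T were 9 falls, and 5 kept this class without MIA PaCa-2 control replicate 2, CCDC24, ENO2, EPOR, KCNN4 and TUBB4A. KCNN4, a calcium-activated potassium channel, fell from 1.83, 1.84 and 1.94 to 0.469, 0.572 and 0.397 FPKM in PATU8988T and measured 19.1, 30.6 and 19.6 in the MIA PaCa-2 controls and 23.3, 21.9 and 22.5 in their knockdown libraries, a difference of 1.78 ± 0.23 (adjusted p = 0.00012). ENO2, the neuronal enolase of the glycolysis and hypoxia list, fell from 86.4, 85.5 and 90.9 to 35.1, 37.4 and 35.2 FPKM in PATU8988T, while MIA PaCa-2 went from 32.2, 38.2 and 31.5 to 39.9, 38.4 and 37.8. Its MIA PaCa-2 libraries overlapped between groups, as control replicate 2 lay among the knockdown libraries. EPOR, the erythropoietin receptor, changed by 0.20 and -1.11, the tubulin gene TUBB4A by 0.13 and -1.17, and CCDC24 by 0.13 and -1.02. The differences of KCNN4, TUBB4A and CCDC24 fell to 0.96, 0.79 and 0.86 in their lowest alternative. In the other 4 genes, ADGRG1, NOTCH3, SRPX and TNNT1, the MIA PaCa-2 change left the class when that library was dropped, although all 9 were still called on the difference. In PANC1, 7 of the 9 were tested and all 7 fell at an adjusted p below 0.05. SEMA4B, a semaphorin that missed the class because its MIA PaCa-2 interval reached 0.57, fell from 36.2, 39.7 and 38.9 to 10.4, 11.2 and 10.6 FPKM in PATU8988T against a change of 0.30 in MIA PaCa-2.

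**Figure D4:**
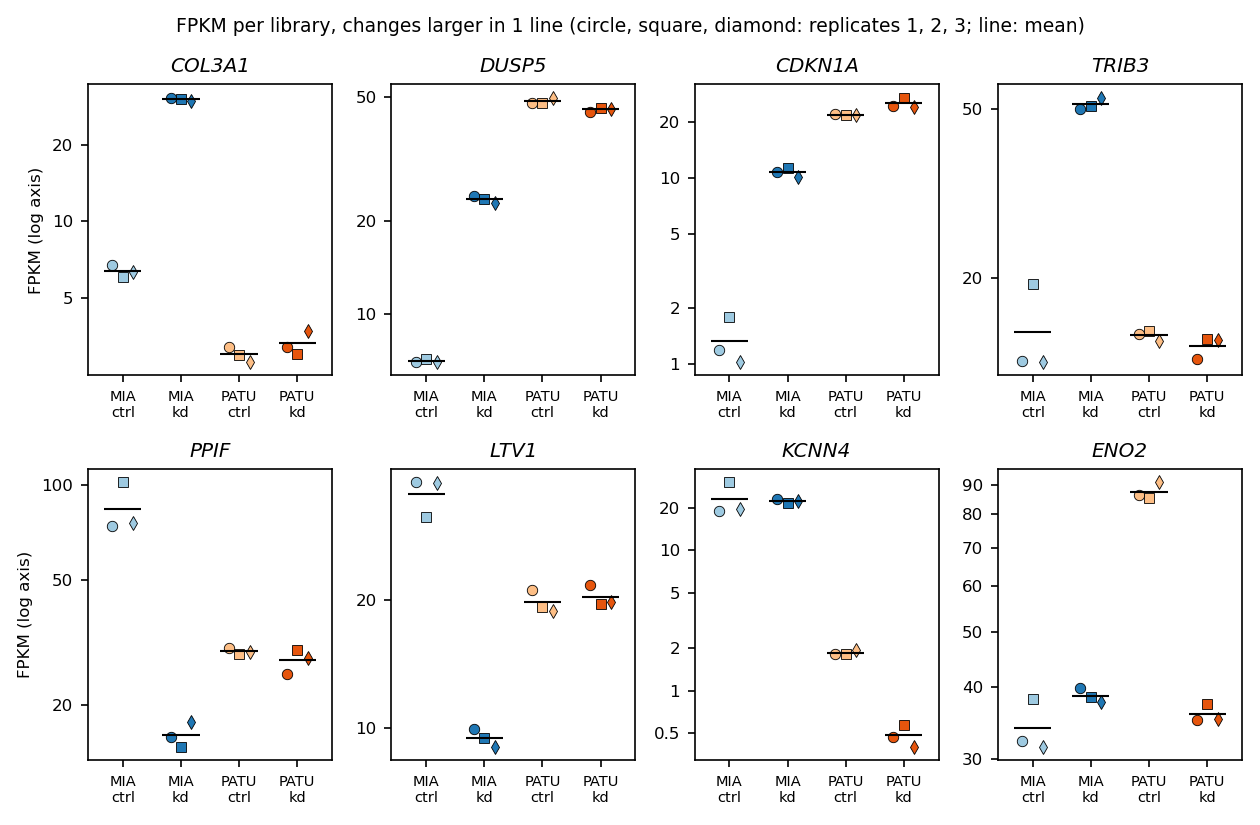
FPKM (log axis) of 8 genes whose change was larger in 1 line, in each of the 12 libraries, with circles, squares and diamonds for replicates 1, 2 and 3 and a line at the mean of each group (MIA, MIA PaCa-2, PATU, PATU8988T, ctrl, control, kd, knockdown). COL3A1, DUSP5, CDKN1A and TRIB3 rose and PPIF and LTV1 fell in MIA PaCa-2, while KCNN4 and ENO2 fell in PATU8988T. Control replicate 2 of MIA PaCa-2 (light blue square) stands off the other 2 controls in TRIB3, PPIF and KCNN4.

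A further 23 genes outside the cell cycle lists moved the same way in both lines but by unequal amounts, 16 with a lower and 7 with a higher difference. COX7C, a subunit of cytochrome c oxidase, fell from 225, 321 and 223 to 39.8, 36.03 and 38.7 FPKM in MIA PaCa-2 and from 429, 410.4 and 407 to 248, 261 and 261 in PATU8988T, a difference of -2.03 ± 0.16 (adjusted p = 4e-06). TACO1, which activates translation of a mitochondrial oxidase subunit, changed by -2.37 and -0.40. The endocytic gene NECAP2 changed by -2.14 and -0.41, and DAP, a death-associated protein, by -2.13 and -0.63. The tight junction gene CLDN1 rose by 1.69 and 0.53, and SAMD4A, a translational repressor, by 1.60 and 0.37. CHAC1, an ATF4-induced enzyme that degrades glutathione, rose from 0.490, 0.527 and 0.519 to 3.88, 4.07 and 4.24 FPKM in PATU8988T. It rose less in MIA PaCa-2, from 0.735, 0.884 and 0.787 to 2.36, 2.51 and 2.16, a difference of -1.33 ± 0.13 (adjusted p = 1.8e-05).

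CHAC1 belongs to the integrated stress response, in which kinases that sense amino acid shortage, unfolded proteins or other stresses slow translation and the factor ATF4 turns on genes for amino acid supply and cell death. Of 32 list genes, 26 were tested, and 10 were called higher in MIA PaCa-2 relative to PATU8988T and 1 lower, against 4.74% and 4.16% of all genes. Median changes were 1.01 (MIA PaCa-2) and 0.22 (PATU8988T), with a median difference of 0.78. In MIA PaCa-2, 22 members rose and 0 fell at an adjusted p below 0.05 in limma, and in PATU8988T 11 rose and 2 fell. Of all genes, 24.9% rose in MIA PaCa-2 and 5.82% in PATU8988T. VEGFA, the angiogenic growth factor and also a hypoxia gene, rose from 6.35, 5.92 and 5.86 to 14.97, 14.7 and 14.6 FPKM in MIA PaCa-2 and went from 19.8, 19.8 and 19.9 to 16.1, 16.3 and 15.9 in PATU8988T, a difference of 1.57 ± 0.08 (adjusted p = 1.5e-07). The repressor NFIL3 changed by 1.41 and -0.20. GPT2, a mitochondrial alanine transaminase, changed by 1.07 and 0.026, and its difference of 1.04 fell just below 1 with a pseudocount of 1 or without control replicate 3 of MIA PaCa-2. CTH, which makes cysteine, rose by 2.17 and 0.80, and the stress factor ATF3 by 2.38 and 1.19. Amino acid and one-carbon synthesis genes as a list held 2 called higher (GPT2 and CTH) and 0 lower of 22 tested, with a median difference of 0.17 that was 0.0064 without MIA PaCa-2 control replicate 2 and below 0 with array weights.

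The windows of the 2 called members with the ATF4-CEBP composite motif TGATGNAA, searched on both strands, are printed in the same way with the match in capitals. They show 1 gene that rose more in each line. Over the alternatives, the difference ran from -2.17 to -0.85 in CHAC1 and from 0.73 to 1.37 in ATF3. Neither reached 1 in size in all alternatives.
CHAC1 (chr15:40953221-40953520, plus strand): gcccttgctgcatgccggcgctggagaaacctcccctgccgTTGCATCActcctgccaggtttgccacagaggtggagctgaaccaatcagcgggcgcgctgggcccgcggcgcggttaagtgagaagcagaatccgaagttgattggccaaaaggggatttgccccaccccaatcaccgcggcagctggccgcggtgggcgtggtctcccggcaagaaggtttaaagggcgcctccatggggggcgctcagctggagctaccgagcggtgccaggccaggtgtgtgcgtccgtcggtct
ATF3 (chr1:212565157-212565456, plus strand): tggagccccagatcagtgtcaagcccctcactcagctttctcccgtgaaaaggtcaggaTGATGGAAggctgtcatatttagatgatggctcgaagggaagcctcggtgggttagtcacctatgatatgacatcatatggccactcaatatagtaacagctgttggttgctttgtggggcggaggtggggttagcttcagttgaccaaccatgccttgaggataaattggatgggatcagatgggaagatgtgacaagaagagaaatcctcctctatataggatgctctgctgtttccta
The motif was found in 4 of 22 list members with a window (18.2%) in 1.42% of the windows of tested genes and in 3.67% of all windows. It was found in 0 of the 76 windows of the genes that MIA PaCa-2 raised and PATU8988T lowered, which says only that these letters are not in those windows. Of the other motifs searched, AP-1 (TGANTCA) was in 5 of the 22 windows (22.7%, against 4.07% of tested genes) and CCAAT in 11 (against 37.9% of tested genes). In windows of the same 76 genes, CCAAT was found in 39.5% and the CHR letters TTTGAA in 2.63%, against 9.08% of tested genes for the latter.

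Lists tied to growth signals and nutrient sensing shifted towards MIA PaCa-2. RAS-MAPK output and feedback genes, which report activity of a growth factor pathway, held 11 called higher and 0 lower of 33 tested (27 higher and 0 lower at an adjusted p alone, against 19.2% and 26.5% of all genes), with a median difference of 0.63. The phosphatase DUSP5 rose from 7.03, 7.19 and 7.03 to 23.99, 23.4 and 22.8 FPKM in MIA PaCa-2 and measured 47.7, 47.9 and 49.7 in the PATU8988T controls and 44.8, 46.2 and 45.8 in their knockdown libraries, a difference of 1.80 ± 0.07 (adjusted p = 5.4e-08). The feedback inhibitor SPRY4 rose from 19.7, 20.3 and 19.99 to 33.8, 33.8 and 33.9 FPKM in MIA PaCa-2 and fell from 15.3, 15.6 and 15.8 to 11.01, 11.1 and 11.2 in PATU8988T, and its antisense transcript could share these reads. The immediate early gene EGR1 changed by 1.54 and -0.086. Named after their values were seen, SPRY1 changed by 0.42 and -1.48, and the AP-1 subunit JUNB by 0.99 and -0.64. Nutrient sensing and FOXO genes held 8 called higher and 0 lower of 24, with a median difference of 0.80. Of all genes, 4.74% were called higher and 4.16% lower. Without MIA PaCa-2 control replicate 2, 14 RAS-MAPK and 11 nutrient sensing genes were called higher. Besides DEPP1 and TXNIP, the autophagy gene GABARAPL1 changed by 1.39 and -0.050. CCNG2, a cyclin of quiescent cells named after its values were seen, changed by 1.56 and -0.64.

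Cholesterol and fatty acid synthesis genes held 5 called higher and 0 lower of 32 (22 higher and 1 lower at an adjusted p alone, against 19.2% and 26.5% of all genes), with median changes of 0.66 (MIA PaCa-2) and 0.04 (PATU8988T). ACSS2, which makes acetyl-CoA from acetate, rose from 9.57, 11.5 and 11.03 to 39.2, 38.5 and 40.5 FPKM in MIA PaCa-2 and fell from 52.5, 52.8 and 55.8 to 39.3, 42.2 and 40.7 in PATU8988T, a difference of 2.27 ± 0.10 (adjusted p = 5.8e-08). The desaturase SCD changed by 0.50 and -0.56, and HMGCS1, an early enzyme of cholesterol synthesis, by 1.40 and 0.31. Their differences of 1.06 and 1.09 became 0.97 and 0.97 without MIA PaCa-2 control replicate 2 and no longer reached 1. The list as a whole then held 6 called higher and 0 lower. Inflammatory and NF-kB genes held 5 called higher and 0 lower of 13, against 4.74% and 4.16% of all genes. NFKB2, a subunit of the pathway, changed by 1.32 and -0.16, and BIRC3, an inhibitor of apoptosis, had a difference of 2.33 ± 0.27. Interferon-stimulated genes held 3 called higher and 1 lower of 38, with UBE2L6 at 0.92 and -0.27, GBP2, over the level filter in MIA PaCa-2 only through its knockdown libraries, at 1.88 and 0.31 and HLA-B at 0.61 and -0.50.

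GDF15 and CDKN1A were also called higher on the difference. GDF15, a stress cytokine, rose from 0.193, 0.731 and 0.343 to 10.9, 11.97 and 12.1 FPKM in MIA PaCa-2 and went from 2.88, 2.36 and 3.17 to 4.11, 4.59 and 3.94 in PATU8988T, a difference of 4.05 ± 0.40 (adjusted p = 1.8e-05). With a mean of 0.422 FPKM in the MIA PaCa-2 controls, GDF15 passed the level filter only through the knockdown libraries. CDKN1A (p21), an inhibitor of the cell cycle, rose from 1.18, 1.78 and 1.02 to 10.7, 11.2 and 10.1 FPKM in MIA PaCa-2 and went from 22.1, 21.7 and 21.7 to 24.4, 26.97 and 24.004 in PATU8988T, a difference of 2.75 ± 0.21 (adjusted p = 3.1e-06). The S-phase and G2/M lists had the opposite sign. S-phase genes held 0 called higher and 24 lower of 114, and G2/M genes 0 higher and 34 lower of 165, where 4.16% of all genes were called lower. Their median differences were -0.59 and -0.70. Without MIA PaCa-2 control replicate 2, 28 S-phase and 43 G2/M genes were called lower. PCNA, the polymerase clamp, changed by -1.15 and 0.30, the kinetochore gene ZWINT by -1.42 and 0.15, the polymerase subunit POLE3 by -1.34 and -0.029, the spindle gene SPAG5 by -1.47 and 0.033, GTSE1 by -1.45 and 0.009 and the lamin LMNB1 by -1.08 and 0.18. Of 8 histone genes tested, 0 were called higher and 1 lower, H2AC11 (-1.68 and 0.68), which rested on 4 to 14 reads in the MIA PaCa-2 knockdown libraries. The median change of the histone list was above 0 in both lines, 0.53 and 0.67, and its median difference was -0.32, or -0.11 without MIA PaCa-2 control replicate 2.

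**Figure D5:**
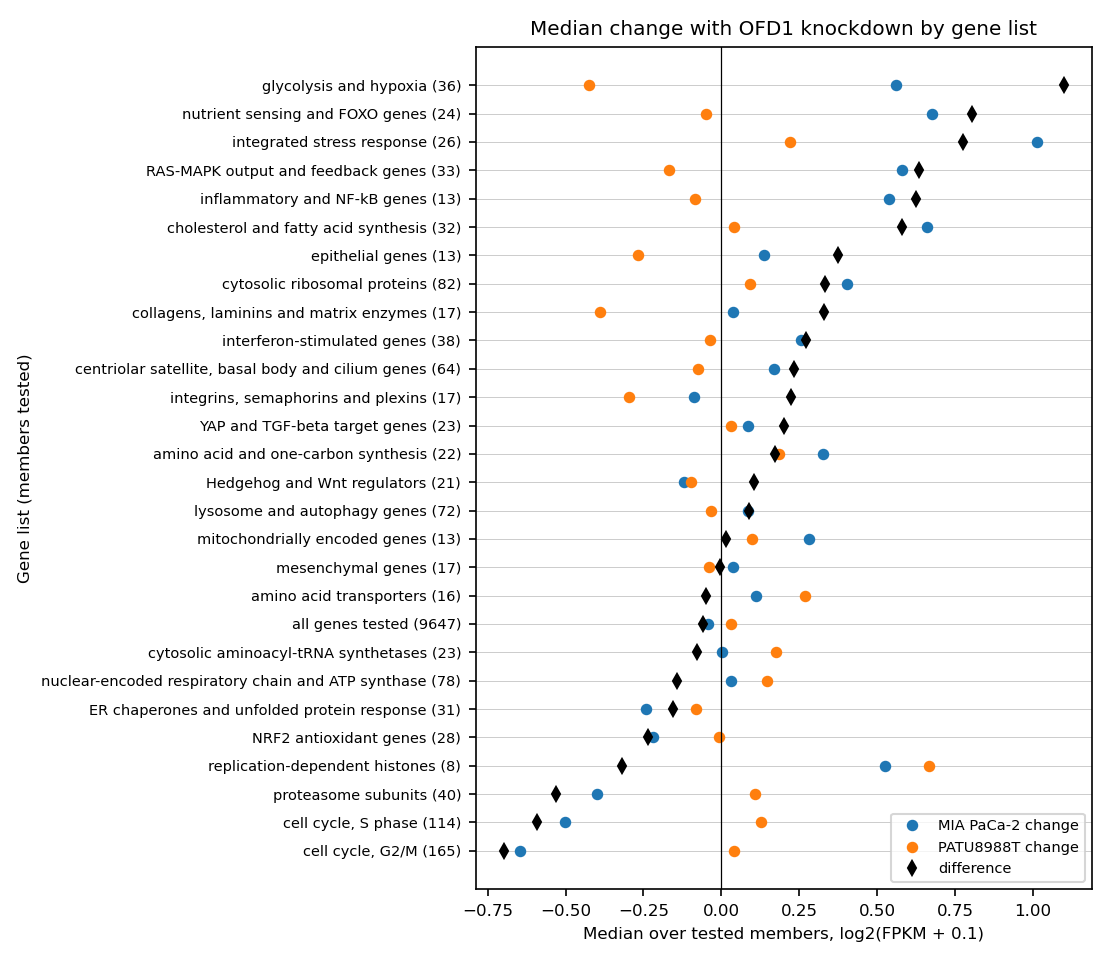
Median change over the tested members of each gene list reported here (number tested in parentheses) in MIA PaCa-2 (blue) and PATU8988T (orange), and the median difference (black), in log2(FPKM + 0.1). The median difference runs from 1.10 for glycolysis and hypoxia genes to -0.70 for G2/M genes, with all genes tested at -0.06.

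In other lists many members differed by less than 1. Cytosolic ribosomal protein genes held 0 called in either direction of 82 by limma, but 54 were higher and 2 lower at an adjusted p alone, where 19.2% of all genes were higher and 26.5% lower, with a median difference of 0.33. Proteasome subunits held 0 called higher and 2 lower of 40, with 0 higher and 32 lower at an adjusted p alone by the same limma fit, and a median difference of -0.53. PSMD11 changed by -1.02 and 0.085, and PSMA3 by -0.95 and 0.057. The difference of PSMA3, -1.005, lay at the threshold and missed it in 10 alternatives. Genes of centriolar satellites, basal bodies and cilia, where OFD1 itself acts, held 5 called higher and 2 lower of 64, near the 4.74% and 4.16% of all genes. At an adjusted p alone, 25 of these genes were higher and 8 lower, against 19.2% and 26.5% of all genes. Their median difference of 0.23 became 0.15 without MIA PaCa-2 control replicate 2. DYNC2H1, the motor heavy chain of retrograde ciliary transport, rose from 0.992, 0.520 and 1.04 to 2.83, 2.91 and 3.26 FPKM in MIA PaCa-2 and measured 7.44, 7.44 and 7.34 in the PATU8988T controls and 6.32, 5.31 and 6.32 in their knockdown libraries. IFT140 changed by 1.03 and -0.30, and BBS1 by 0.83 and -0.24, and both are ciliary transport genes. Lysosome and autophagy genes held 4 called higher and 2 lower of 72, with the autophagy receptor OPTN at 1.202 and -0.056, WIPI1 at 1.46 and 0.031 and the mannosidase MANBA at 0.77 and -0.47.

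Surface and matrix lists varied in direction. Of all genes, 4.74% were called higher and 4.16% lower. Collagens, laminins and matrix enzymes held 6 called higher and 0 lower of 17, among them LAMB1 (laminin β1) with 0.89 and -0.39. Integrins, semaphorins and plexins held 2 higher (ITGB4 and SEMA4B) and 0 lower of 17. Epithelial genes held 3 higher and 1 lower of 13, the latter KRT80 with -0.91 and 0.37. Mesenchymal genes held 1 higher (ACTA2) and 0 lower of 17, and their median difference of -0.003 turned positive in 15 alternatives. YAP and TGF-beta targets held 2 higher and 2 lower of 23, with LTBP2 at 0.44 and -0.78 and FJX1 at -0.76 and 0.35, the latter at -0.95 for its difference without MIA PaCa-2 control replicate 2. Hedgehog and Wnt regulators held 0 higher and 1 lower of 21, the Wnt antagonist DKK1, which rose from 2.16, 1.93 and 1.73 to 3.80, 3.59 and 4.21 FPKM in PATU8988T and measured 69.7, 58.9 and 71.3 in the MIA PaCa-2 controls and 56.7, 58.9 and 58.6 in their knockdown libraries. Of the 18 fibroblast and blood cell markers, 1 was tested and 0 were called.

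Among the remaining lists, amino acid transporters held 1 called higher and 3 lower of 16, against 4.74% and 4.16% of all genes. SLC7A6 fell from 11.9, 11.4 and 12.1 to 5.47, 5.54 and 5.28 FPKM in MIA PaCa-2 and rose from 18.9, 18.5 and 19.1 to 24.7, 24.8 and 25.6 in PATU8988T, a difference of -1.51 ± 0.07 (adjusted p = 1.7e-07). SLC36A1 changed by -1.51 and 0.26, and missed the level filter without MIA PaCa-2 control replicate 2, and SLC43A1 changed by 1.77 and -0.18. Cytosolic aminoacyl-tRNA synthetases held 0 higher and 1 lower of 23, FARSB with -1.31 and -0.021. Chaperones of the endoplasmic reticulum held 3 higher and 2 lower of 31. CALR (calreticulin) changed by -1.23 and -0.16, with a difference of -1.07 that became -0.92 without that library. The oxidase ERO1A changed by 0.38 and -0.86, and DNAJB9 by 1.44 and 0.20. NRF2 antioxidant genes held 1 higher (HMOX1) and 1 lower of 28, KEAP1, the NRF2 inhibitor, with -1.28 and 0.049 and with 23.96, 38.8 and 25.8 FPKM in the MIA PaCa-2 controls. Nuclear-encoded respiratory chain genes held 0 higher and 1 lower (COX7C) of 78, and mitochondrially encoded genes 0 higher and 1 lower (ND6) of 13. Without MIA PaCa-2 control replicate 2, the lower calls of amino acid transporters went from 3 to 1 and those of the synthetases from 1 to 3, and the higher calls of NRF2 genes went from 1 to 2. The lower calls of mitochondrially encoded and of interferon-stimulated genes each went from 1 to 2.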

How the data were processed

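RNA-seq of 12 libraries was analysed, 3 control and 3 OFD1 knockdown libraries each of MIA PaCa-2 and PATU8988T. According to the study's methods, total RNA was sequenced on an Illumina platform, reads were aligned with HISAT2 and counted with HTSeq-count. The labels name another RNA and library kit, which was not settled here, and the genome build, gene annotation and strand setting are not given in the sources used here. The authors deposited FPKM values for 26668 gene symbols. In each of the 12 libraries the value of 1 read could be found from the steps between low values, and all values were whole reads for 99.99% of 20604 genes in MIA PaCa-2 and 99.97% of 21498 in PATU8988T (tolerance 0.001), which gave the reads counted per library. At this depth few reads limit the precision of low genes, and intervals on reads cover counting error only. Replicate pairs differed by a chi-square per degree of freedom of 3.02 to 124, so none was counted as a duplicate.

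Columns were mapped to samples by their names. The level filter asked for a mean FPKM of 1 or more in both lines. The model for log2(FPKM + 0.1) had 4 group means and a trended eBayes step and ran in limma (version 3.58.1, under R version 4.3.3, with the data.table package at version 1.17.8). Each change and the difference had its p-values corrected after Benjamini and Hochberg across 9647 genes. PANC1 was fitted separately. Standard errors are limma's moderated ones.

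Genes were named by a rule. It took OFD1, BRCA1, up to 8 genes of each opposite orientation with the largest smaller change of both lines, up to 8 highest and lowest of those limited to MIA PaCa-2, up to 6 of those limited to PATU8988T in each direction, up to 5 of each unequal direction, and up to 3 called members of each list by p, all but the list members kept without MIA PaCa-2 control replicate 2 and outside the cell cycle lists. The 29 gene lists were written from general knowledge, and 1 list and 1 named gene are not reported here. Members, lists and rule were chosen with earlier results of these data known. No set test was run. Promoters are those of RefSeq on GRCh38.p14, of which 7964 matched a tested symbol. Alternatives covered the pseudocount, the level filter, 2 scalings, all 18 libraries, array weights, a replicate block, a call by adjusted p alone and leaving out each library.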

Additional observations from a re-analysis of the deposited data

Results flagged for a closer look

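The named genes with opposite changes drew attention because the effect of knockdown differed between the lines by the interaction test and pointed in opposite directions. The difference, MIA PaCa-2 minus PATU8988T on the log2 scale, was above 0 in UPK1A-AS1 (3.25), SLC2A3 (3.67), EFEMP2 (3.19), ANKRD37 (3.62), UPK1A (3.49), MAPT (2.52), TSPAN1 (2.77) and ITGB4 (2.79). It was below 0 in SCARA3 (-2.13), PTS (-1.47), BRPF3 (-1.44), RXYLT1 (-1.18), EID2 (-1.41), CTPS1 (-1.24) and MATN2 (-1.17). For all 15, the knockdown libraries did not overlap the controls in either line, which largely follows from the tests that chose them. Outliers were not sought, since groups held 3 libraries.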

How the results depend on the processing

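The counts moved by over 1.5 times under these alternatives. With a pseudocount of 1, 258 genes were higher and 4 limited to PATU8988T. With a mean FPKM of at least 5, 172 were higher, 39 opposite, 169 limited to MIA PaCa-2 and 2 to PATU8988T of 6203 tested. With no filter on low values, 1204 were higher, 199 opposite and 29 limited to PATU8988T of 18549 tested. With array weights, 15 were limited to PATU8988T. By adjusted p alone, 1854 were higher, 2554 lower, 284 opposite, 2873 limited to MIA PaCa-2 and 322 to PATU8988T. Leaving out 1 library gave 437 to 495 higher, 396 to 446 lower, 88 to 141 opposite, 210 to 353 limited to MIA PaCa-2 and 8 to 14 to PATU8988T, the highest count of 14 without MIA PaCa-2 control replicate 2. Median-ratio size factors gave 547 higher and 323 lower, so that 62.9% of calls were higher against 53.3%. The causes were not tested, apart from the number of genes tested under the level filters. No call on the difference changed direction in any of the 22 alternatives. Of the named genes, 2456 values in all, 4 changed sign, each the uncalled difference of BRCA1, which was -0.094 with a pseudocount of 1, -0.039 after quantile normalization, -0.17 with array weights and between -0.15 (without MIA PaCa-2 control replicate 2) and 0.14 when 1 library was left out. 43 values no longer reached the threshold, and 25 named genes lost their call in at least 1 alternative.

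No pairing by replicate number was seen. The deviations of same-numbered control and knockdown libraries correlated between -0.14 and 0.13, and those of other-numbered libraries between -0.27 and 0.26. With 3 libraries per group, these values cannot exclude a pairing. A replicate block gave 453 genes higher, 401 lower, 98 opposite, 240 limited to MIA PaCa-2 and 9 to PATU8988T. Few reads limit the precision of low genes such as IL32.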
